A study of Rattus norvegicus with 4 samples.

Results

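Normal fracture repair was followed by comparing the callus of control rats on day 11 after the fracture with that on day 5. The comparison covers 15331 genes, those with a signal above the detection limit on both control arrays, out of 20174 gene probes on the array (76.0%). A callus is the tissue that bridges a healing fracture. In closed fractures held by a pin it begins as a blood clot with inflammatory and fibrous tissue, then cartilage forms within it, and the cartilage is later mineralised and replaced by woven bone while resorbing cells and vessels move in.

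All animals were male Sprague-Dawley rats aged 12 weeks. Control rats received sodium chloride in place of streptozotocin and had a normal blood glucose level, and the right femur, pinned with a 1.25 mm wire, was broken closed by a drop weight. Callus of 5 control animals per day was pooled before RNA extraction and hybridised to 1 single-colour array, so the spread between animals was averaged within each pool and cannot be measured. The diabetic groups, used here only for values side by side, carried the same fracture and pin and had received 40 mg/kg streptozotocin, which destroys the insulin-producing cells, with a blood glucose over 300 mg/dl. With 1 array per day no test was possible, and genes are described by signal and by ratio without p-values. In pooled bulk tissue fewer cells of a type and less RNA per cell cannot be told apart.

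The array files identify genes by Ensembl ID. Of the 20174 IDs, 0 could be matched to a symbol through the reference table of 47357 genes, where the Ensembl column is empty, so no gene symbol, cell type or pathway is reported, the labelled tissue could not be checked against marker genes, and no more than 2 IDs per direction are printed.

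Signal is given as the spot brightness minus the mean of the blank spots of the same array, scaled so that the 15331 genes have a median of 25 on each array. Detection was slightly more frequent on day 5. A gene counted as above the limit at a scaled signal of 0.643 on day 5 and 0.764 on day 11, and 16384 genes (81.2%) passed on day 5 against 15852 (78.6%) on day 11. The limit was also passed by 55.2% of negative control spots on day 5 and 49.0% on day 11. Among spots marked as having no probe the shares were 32.3% and 47.6%. Passing the limit therefore does not by itself show that a gene was expressed. The blank spots were also a little brighter and more scattered on day 11, at 40.9 ± 1.35 (SD over 5808 spots) raw units against 38.8 ± 1.04 on day 5. On both arrays 3268 genes were below the limit, and 12 probes carried a bad flag.

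Of the 15331 genes, 14115 (92.1%) were within 2-fold between day 5 and day 11 of control callus. The central 90% of log2 ratios, day 11 over day 5, lay between -0.87 and 0.94, and their SD was 0.615. Past 2-fold, 663 genes (4.32%) were higher on day 11 and 553 (3.61%) were lower. Past 4-fold, 117 genes (0.763%) were higher and 86 (0.561%) lower. Higher genes made up 54.5% of those past 2-fold. Among the 20 genes at least 16-fold apart, 16 were higher and 4 lower on day 11.

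The split between higher and lower depends on the scaling. In the authors' deposited table each array was scaled over its own list of detected genes, which is longer on day 5. The median log2 ratio there is -0.14, against 0.01 with the scaling used here, and 486 genes were higher and 773 lower by 2-fold or more, so that higher genes made up 38.6%. All 486 of these higher genes were among the 663, and all 553 lower genes were among the 773. The counts also depend on the background. With the local background of each spot subtracted, 1901 genes were higher and 1781 lower past 2-fold, and 500 and 456 past 4-fold, and 54.4% of the 663 and 51.4% of the 553 were past 2-fold there. With an offset of 50 (normexp) and quantile normalization, 162 were higher and 120 lower past 2-fold, and 31 and 17 past 4-fold. Many genes lay close to the 2-fold line, with 520 between 1.8-fold and 2-fold and 305 between 2-fold and 2.2-fold apart.

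**Figure D1:**
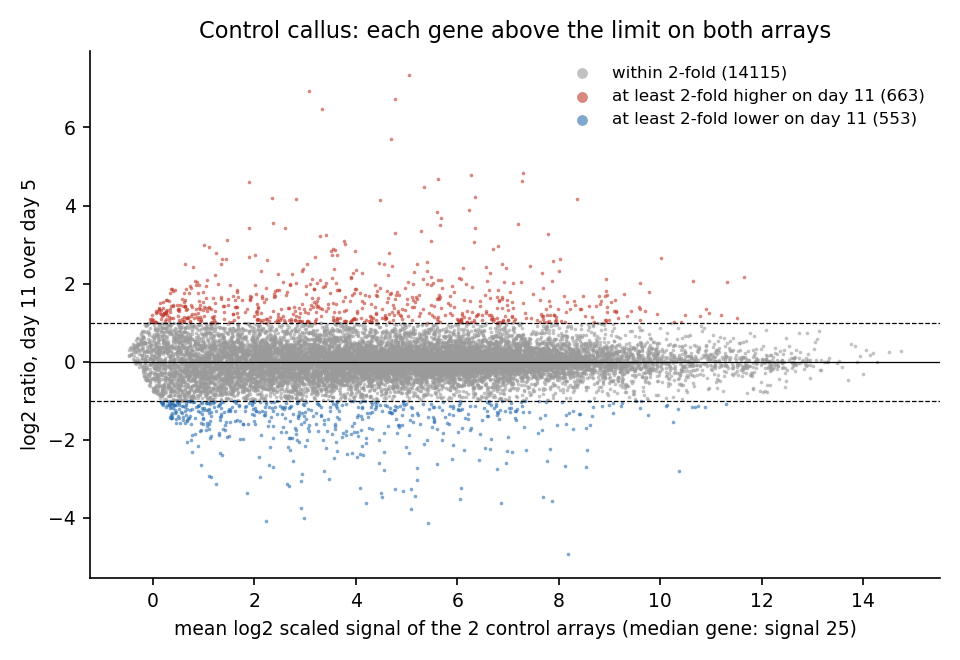
Each point is 1 of the 15331 genes, with its mean log2 scaled signal over both control arrays on the x axis and its log2 ratio of day 11 over day 5 on the y axis. The dashed lines mark a ratio of 2-fold, past which lie 663 genes on the higher and 553 on the lower side, and the widest positive ratios, up to 7.35, reach further from 0 than the widest negative ones.

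The spread of the ratios differed with signal. The genes were divided by mean signal into 10 equal parts. In the dimmest part, with a median signal of 1.38, 13.9% of genes were past 2-fold, 113 of them higher and 100 lower. In the brightest part, with a median signal of 706, the share was 5.15%, with 50 higher and 29 lower. The SD of the log2 ratios was 0.690 in the dimmest and 0.467 in the brightest part. It did not fall steadily between them, and was largest in the fourth part, at 0.702. Differences of at least 4-fold were spread otherwise: the dimmest part held 8 of them, the fourth part 35, the most of any, and the brightest part 10.

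**Figure D2:**
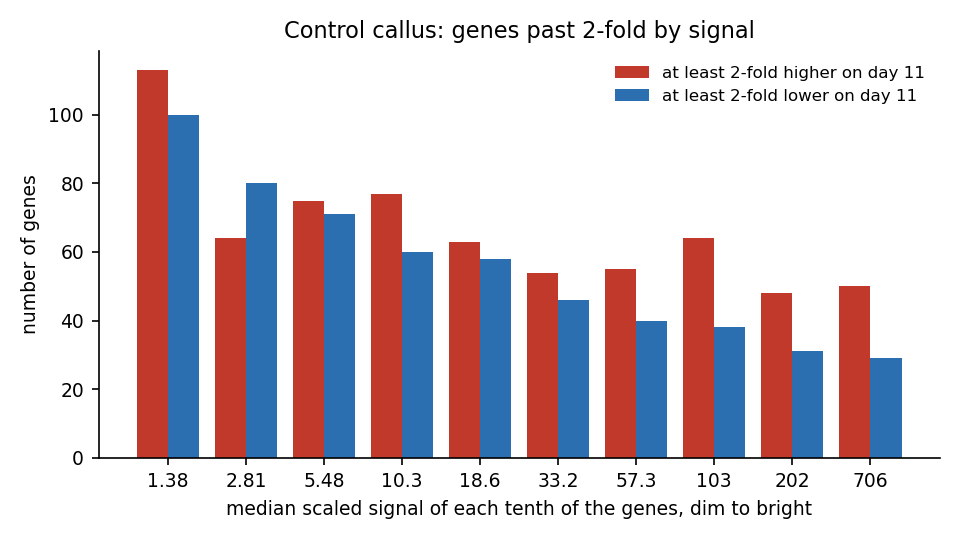
Bars count the genes past 2-fold in each direction on day 11 of control callus, in 10 equal parts of the genes ordered by signal, each named by its median scaled signal on the x axis. The dimmest part has the tallest bars, 113 and 100, and the brightest has 50 and 29.

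Probes printed at many spots give the spread of signal within an array, and the spread of the day ratio over matched positions. A positive control probe printed at 24 spots had a signal of 5651 ± 452 (SD over spots) on day 5 and 6054 ± 719 on day 11, with a median log2 ratio of 0.09 over positions and an SD of 0.110, and 0 of its 24 positions were 2-fold apart. A second positive control, also at 24 spots, had a median log2 ratio of 0.11 and an SD of 0.379, with 1 position past 2-fold. These probes are among the brightest spots, and their spread covers neither dim spots nor the difference between pools. Place on the array moved with the ratio to a small extent: over 24 printed blocks of 601 to 671 genes each, the median log2 ratio ranged from -0.11 to 0.16. With each block's median set to 0, a choice made after seeing the data, 665 genes were higher and 543 lower by 2-fold or more.

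The brightest probes were largely the same on both days. Brightness differs between probes for reasons other than abundance, so it gives no order of transcripts. The 10 brightest genes gave 5.97% of the summed signal on day 5 and 6.43% on day 11, and 8 genes belonged to the 10 brightest of both days. Of the 100 brightest, 87 were shared, and together they gave 26.6% and 27.0% of the signal. The 113 genes among the 100 brightest of either day had log2 ratios from -0.79 to 2.17, and past 2-fold were 2 of these on the higher side and 0 on the lower. Among the 1112 genes in the 1000 brightest of either day, 56 were higher and 35 lower.

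Genes that were higher on day 11 mostly started from a low level. The 117 genes at least 4-fold higher had a median signal of 7.88 on day 5 and 66.5 on day 11, where the median gene has 25. On day 5, 86 of them were under 25 and 9 over 100, and on day 11, 36 were under 25 and 48 over 100. The 86 genes at least 4-fold lower went the other way, from a median of 46.3 on day 5 to 7.29 on day 11. Of these, 29 had a signal over 100 on day 5 and 5 on day 11. Since the genes were taken for their ratio, low levels on the lower side are in part built into the choice.

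The largest differences are given for genes brighter than the median of the 15331, by the mean log2 signal of the 2 control arrays. A gene that was dim on 1 day could therefore pass through its signal on the other. The 15 furthest higher on day 11 had log2 ratios from 3.50 to 7.35, or 11.3-fold to 163-fold, and the 15 furthest lower had log2 ratios from -2.74 to -4.92, or 6.68-fold to 30.3-fold lower. All 30 were also past 2-fold, in the same direction, with the 6 other ways of processing that could change their values. Most of these ways moved the ratios too little to bring any of the 30 under 2-fold. Only normexp and the local background moved them much, to log2 ratios of at least 2.24 and 2.69 for the higher genes. For the lower genes the highest log2 ratios there were -1.67 and -2.03. These 30 genes sat in 14 of the 24 blocks, with at most 5 in 1 block.

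ENSRNOG00000002843 led the higher genes. Its scaled signal was 2.59 on day 5 and 422.9 on day 11 of control callus, against 5.08 on day 5 and 0.0774 on day 11 of diabetic callus, the last of which is below the limit. Control callus of day 11 thus stood far above the 3 other arrays, and the control log2 ratio was 7.35, a 163-fold difference. As the day 5 signal is dim, the size depends on the background: the log2 ratio was 5.81 with the local background subtracted and 3.96 with an offset of 50 (normexp).

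ENSRNOG00000002792 came next. Its signal was 2.64 on day 5 and 281.2 on day 11 of control callus, and 3.63 and 7.43 on the same days of diabetic callus. Again the day 11 control array was the high one, with a log2 ratio of 6.74, or 107-fold, while the diabetic arrays differed by a log2 ratio of 1.10 in the same direction. Its control log2 ratio was 5.19 with the local background and 3.40 with the offset.

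ENSRNOG00000019607 led the lower genes, with a signal of 1607 on day 5 and 53.0 on day 11 of control callus. In diabetic callus it was 1649 on day 5 and 4360 on day 11. Here the day 11 control array was the low one of the 4, and the control log2 ratio of -4.92, a 30.3-fold lower signal, stood beside a diabetic log2 ratio of 1.47 in the opposite direction. Both control signals were well away from background, and the log2 ratio stayed between -4.41 and -5.07 with the other ways of processing.

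ENSRNOG00000030462 was the next lower gene, at 178.6 on day 5 and 10.3 on day 11 of control callus. Its diabetic signals were 51.6 and 16.9, so both conditions had the higher level on day 5. The log2 ratio was -4.12 (17.4-fold lower) in control and -1.55 (2.92-fold lower) in diabetic callus. Its control log2 ratio was -3.85 with the local background and -2.54 with the offset.

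The 15 leading higher genes were ranked by the control ratio, so their gap between control day 11 and control day 5 was fixed by the choice. The brightness filter also favoured a high control day 11 signal, so the place of that signal above the diabetic ones is in part built in. Their lowest, median and highest signals were 169.8, 288.1 and 1398 on control day 11 and 2.59, 14.8 and 77.6 on control day 5. On diabetic day 5 they were 0.768, 9.30 and 63.9, and on diabetic day 11 0.0774, 23.3 and 152.7, so that every control day 11 signal was above every diabetic one. Of the 13 with a diabetic ratio, 4 were past 2-fold in the same direction there as well, with log2 ratios from -0.69 to 2.18 over the 13.

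The 15 leading lower genes were chosen in the same way. Control callus had a lowest, median and highest signal of 85.0, 205.8 and 3493 on day 5 and of 8.83, 19.6 and 500.8 on day 11. Diabetic callus ranged from 1.09 to 12442 on day 5 and from 0.937 to 6471 on day 11, wider than control on both sides. The highest of the 4 signals fell on control day 5 for 7 of these genes, on diabetic day 5 for 6 and on diabetic day 11 for 2. The lowest fell on control day 11 for 8 and on a diabetic array for the other 7. The widest diabetic difference was that of the gene ranked 3, with signals of 126.0 and 9.29 in control and of 329.5 and 3.73 in diabetic callus, a log2 ratio of -3.76 in control and -6.40 in diabetic callus.

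**Figure D3:**
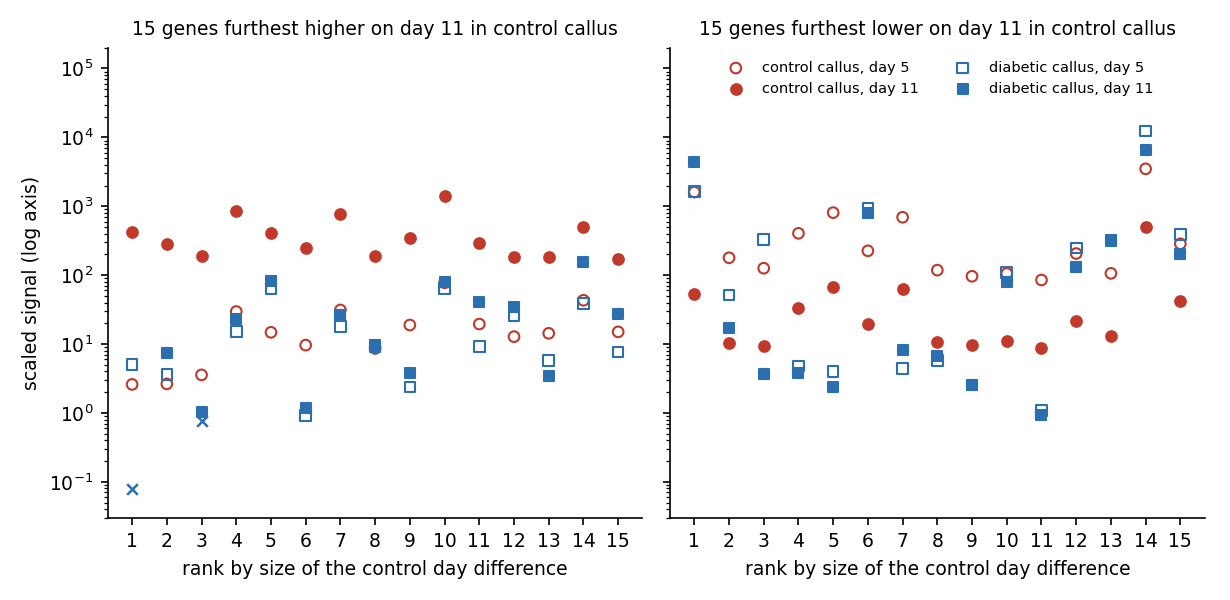
Scaled signals on a log axis for the 15 genes furthest higher (left) and the 15 furthest lower (right) on day 11 of control callus, with circles for control and squares for diabetic callus, open for day 5 and filled for day 11, and crosses for signals below the limit. On the left the filled circles, from 169.8 to 1398, lie above both diabetic arrays for every gene. On the right the squares, from 0.937 to 12442, reach below and above the control signals, which run from 8.83 to 3493.

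The wider set of genes at least 4-fold apart was placed in the same way, by asking on which side of the midpoint of the control log2 signals each diabetic array lay, with signals below the limit set to the limit. Of the 117 genes higher on day 11, 91 (77.8%) had both diabetic arrays on the side of control day 5. Their median signals were 7.05 and 66.5 on day 5 and day 11 of control callus and 3.49 and 3.49 of diabetic callus. On each diabetic array 81 of the 91 were above the limit. Of all gene probes, 79.6% were above it on diabetic day 5 and 79.1% on diabetic day 11. The 91 had already passed the limit on both control arrays, so all gene probes are not a matched base. Of the 15331 genes that passed on both control arrays, 14682 were above the limit on both diabetic arrays as well. Another 15 genes had both diabetic arrays on the day 11 side, with medians of 11.2 and 60.8 in control and 58.9 and 289.1 in diabetic callus. In 10 genes each diabetic array lay on the side of its own control day, with medians of 17.3 and 250.6 in control and 35.6 and 74.9 in diabetic callus. In 1 gene each lay on the side of the other day. Diabetic arrays on the same side of the midpoint can still differ from each other in either direction.

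Among the 86 genes lower on day 11 by 4-fold or more, 49 (57.0%) had both diabetic arrays on the side of control day 5. By this grouping the day 11 control array was the low one in each of them. Their medians were 54.0 and 8.89 in control callus and 110 and 76.5 in diabetic callus. For 27 genes (31.4%) both diabetic arrays lay on the day 11 side, which makes the day 5 control array the high one by the grouping. Their medians were 38.4 and 5.98 in control and 1.96 and 1.33 in diabetic callus. In 10 genes each diabetic array lay on the side of its own control day, with medians of 34.5 and 7.22 in control and 27.3 and 7.14 in diabetic callus. The genes were taken for a large control difference, so a signal that only 1 control pool or array had gives the same picture as a change with time, and with 1 array per day these cannot be told apart.

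**Figure D4:**
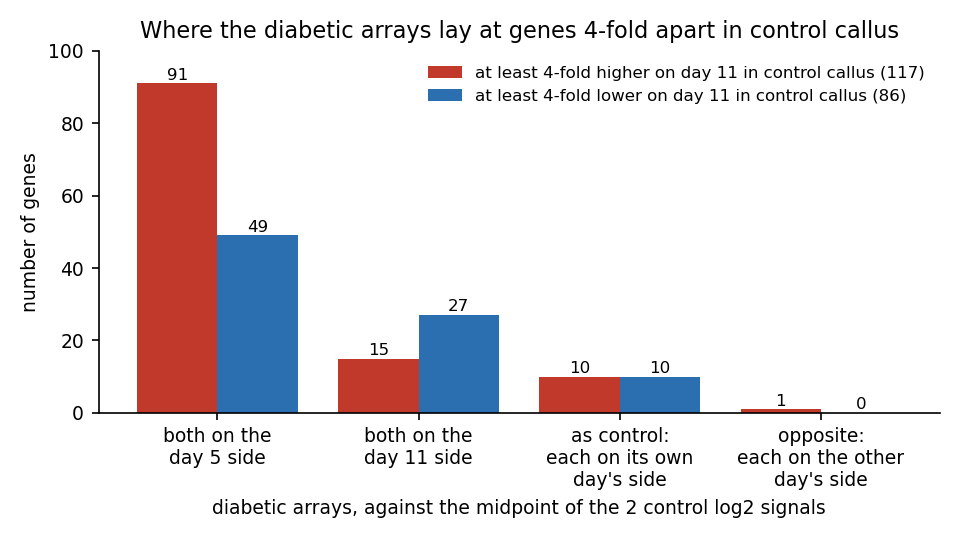
Bars count the genes past 4-fold between the control arrays, 117 higher and 86 lower on day 11, by the place of the 2 diabetic arrays, each put on the side of the control array it was nearer to on the log2 scale. Both diabetic arrays were on the day 5 side for 91 and 49 genes and on the day 11 side for 15 and 27. Each was on its own day's side for 10 and 10, and each on the other day's side for 1 and 0.

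In diabetic callus the same day comparison, made on 2 separate pools, covered 15215 genes above the limit on both arrays, of which 712 (4.68%) were higher and 355 (2.33%) lower on day 11 by 2-fold or more. The SD of its log2 ratios was 0.596, against 0.615 in control callus, and no test of the difference was possible. Of the 117 genes higher by 4-fold or more in control callus, 102 had a diabetic ratio, and past 2-fold there were 24 (23.5%) on the higher and 4 (3.92%) on the lower side, with a median log2 ratio of 0.39. The diabetic log2 ratios, centred on their median, were above 0 in 74 of the 102 and below 0 in 28. Of the 86 lower genes 75 had a diabetic ratio, and past 2-fold were 18 (24.0%) on the lower and 5 (6.67%) on the higher side, with a median of -0.50. Below 0 were 57 of the 75 and above 0 were 18. Over the 14682 genes above the limit on all 4 arrays, 81 were past 2-fold on the higher side in both conditions, which is 14.0% of the 578 higher in control and 12.6% of the 643 higher in diabetic callus. On the lower side in both were 69 genes, 13.7% of the 505 in control and 21.0% of the 328 in diabetic callus.

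Genes above the limit on only 1 control array have a lower bound in place of a ratio, taken against the lowest signal above the limit on the other array or the gene's own signal there, whichever was higher. On day 5 only there were 1047 such genes, with a median signal of 0.963, and on day 11 only 516, with a median of 1.08, so most lay just above the limit. By this bound 141 genes were higher and 172 lower on day 11 by 2-fold or more. At least 4-fold higher were 21 genes, the brightest at a signal of 48.0 on day 11, which is at least 73.7-fold higher. Of these 21, 9 were above the limit on day 5 and 7 on day 11 of diabetic callus, where 79.6% and 79.1% of all gene probes were. The 21 were chosen for being below the limit on control day 5. All gene probes are thus not a matched base, and a low diabetic share is in part built into the choice. At least 4-fold lower were 16 genes, by at least 10.2-fold for the largest, and 13 and 11 of them were above the limit on day 5 and day 11 of diabetic callus.

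**Figure D5:**
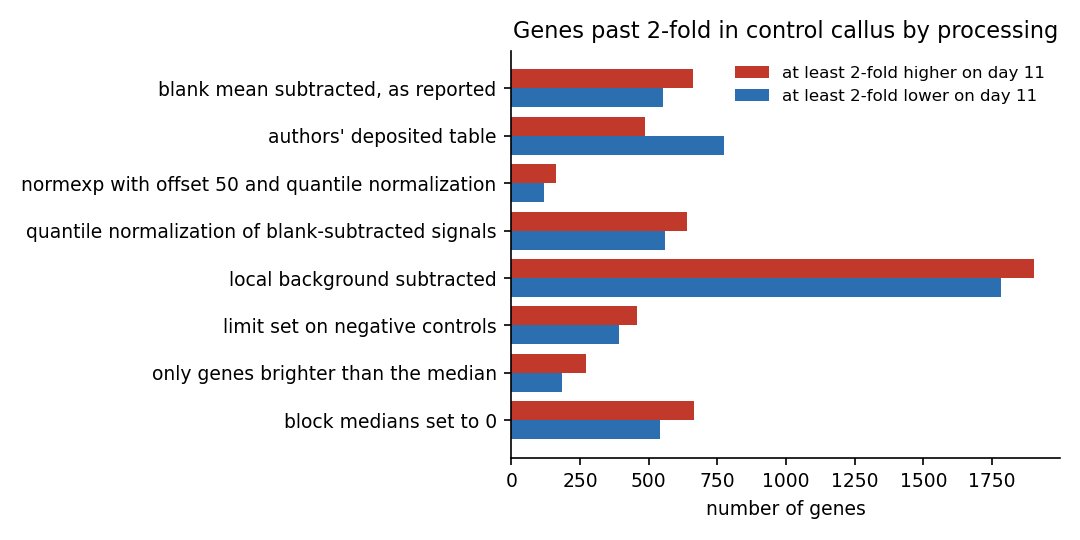
Bars count the genes past 2-fold in each direction on day 11 of control callus with the values reported and with 7 other ways of processing. The counts range from 162 and 120 with an offset of 50 (normexp) to 1901 and 1781 with the local background subtracted, and the authors' deposited table has more lower (773) than higher (486) genes.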

How the data were processed

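Per the labels' protocols, RNA of the pooled callus was amplified (amino allyl aRNA) and labelled with Cy5. Each deposited array file holds 1 median foreground intensity and 1 local background intensity per spot at 635 nm, with flags at 3 scanner gains, per the file headers. The authors also deposited a table of scaled intensity values. A straight line fitted them from the spot medians to within 0.00511. For scanner, software and annotation the sources used here give nothing.

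The mean of the blank spots was subtracted from column 7 of each array. The limit was set 2 SD above the mean of the blank spots, with 5% trimmed from either end. Each array was scaled to a median of 25 over the genes above the limit on both control arrays. The diabetic ratios were centred on their median, -0.07 before centring. Genes named were those furthest apart in either direction among genes brighter than the median, cut to 2 IDs each since no symbols were found. The 24 gene lists drawn up could not be applied. Members and lists were chosen with earlier results of these data known. Counting was tested on simulated data without spot noise, which checks the code but not the counts of dim genes or of genes near 2-fold. Python 3.11.15, pandas 2.3.3 and, for normexp, limma 3.58.1 in R 4.3.3 were used. No model was fitted and no p-value computed. Alternatives were the authors' table, normexp, quantile normalization, local background, a negative control limit, brighter genes only and block centring. Only 1 array per day limits the precision.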

Additional observations from a re-analysis of the deposited data

Results flagged for a closer look

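The day difference of ENSRNOG00000019607 ran in opposite directions in the 2 conditions, with a log2 ratio of 1.47 in diabetic callus against -4.92 in control callus. In all, 58 genes were past 2-fold in opposite directions. Of 578 genes higher on day 11 in control callus, 14 (2.42%) were lower in diabetic callus, near the 2.33% over all diabetic genes. Of 505 lower in control callus, 44 (8.71%) were higher in diabetic callus, where 4.68% of all genes were. With 1 array per group these differences were not tested.

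Spots without a gene probe gave signal on the control arrays and were part of no comparison. The limit was exceeded by 7.21% of blank spots on day 5 and 7.16% on day 11. Among 809 spots marked as having no probe the shares were 32.3% and 47.6%, and among 96 negative control spots 55.2% and 49.0%. Of 521 QC probes, whose nature is not given in the sources used here, 334 were above the limit on both control arrays, and 5.69% of these were past 2-fold, 14 on the higher and 5 on the lower side, with a median log2 ratio of 0.12 and an SD of 0.478. With the limit set on the negative control spots, 13237 genes remained, of which 456 were higher and 393 lower by 2-fold or more. The part of such signal in the values of the genes kept was not tested.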

How the results depend on the processing

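With the authors' deposited table, quantile normalization, the limit set on negative controls and block centring, each count of genes past 2-fold and 4-fold stayed within 1.5 times that reported. With normexp and an offset of 50, 162 genes were higher and 120 lower by 2-fold or more, and 31 and 17 were past 4-fold. All 162 and 120 were among the genes past 2-fold as reported, and the offset shrinks ratios of dim genes by construction. With the local background subtracted, 1901 genes were higher and 1781 lower by 2-fold or more, out of 14595, and 500 and 456 past 4-fold. Of the 663 higher and 553 lower genes as reported, 361 and 284 were past 2-fold there too, 54.4% and 51.4%. The cause was not tested. With only the 7665 genes brighter than the median, fewer genes by construction, 271 were higher and 184 lower by 2-fold or more, and 58 and 36 past 4-fold. The log2 ratios of the 4 named IDs kept their direction and stayed past 2-fold in the 6 alternatives that could change them, all but the one of brighter genes. Apart from normexp and the local background, these alternatives moved the ratios too little to bring any of the 4 under 2-fold. Other scanner gains were not run, as the array files give 1 value per spot. The 4-fold counts and block centring were added after the data were seen. Signals near the blank level limit the ratios of dim genes.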
